A study of Mus musculus with 12 samples.

Results

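The genes that changed alike after exercise in the soleus muscle of mice with and without Dnmt3a, a DNA methyltransferase gene deleted in muscle, are described here. The 12 RNA libraries, 3 in each of 4 groups, came from exercised KO mice, exercised WT mice, sedentary KO mice and sedentary WT mice. All were C57BL/6 mice on a chow diet. The KO mice are called MCK-Dnmt3a KO in the labels, and the WT mice carried the floxed Dnmt3a allele. MCK usually stands for the muscle creatine kinase promoter, which drives Cre in striated muscle and leaves Dnmt3a intact in the other cells of the tissue. The form and length of the exercise, the time from exercise to dissection, the time of day, and the sex and age of the mice are not stated in the labels. One model with genotype as a block set the 6 exercised libraries against the 6 sedentary ones. A gene was called when its adjusted p was under 0.05, by edgeR's quasi-likelihood test with Benjamini-Hochberg adjustment over all 13886 genes that passed the low-count filter, out of 24539 listed. Of those tested, 415 genes were called, and in all 415 the fold change had the same sign in KO and in WT mice. The call pools both genotypes and so favours genes with the same sign in both. The shared sign therefore describes the selected genes and is no separate evidence of likeness.

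The soleus is a slow, oxidative postural muscle. When a muscle contracts, calcium, cAMP and mechanical load switch on immediate early genes within minutes, among them the Fos and Jun proteins that pair into the transcription factor AP-1, and the Nr4a nuclear receptors, which the cAMP-responsive factor CREB turns on. Heat and misfolded protein release the factor HSF1, which induces the heat shock chaperones. Blood vessels, fibroblasts and resident immune cells lie between the fibres, and their RNA is part of every bulk library. In such libraries fewer cells of a type and less RNA per cell cannot be told apart.

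Library totals lay between 13329547 and 15480960 counts. Levels are given as CPM, each count over its library's total, scaled by TMM, the edgeR scaling that assumes most genes do not change. Libraries are named a, b and c within a group, in the order of the columns, whose animal numbers match no label. The columns of KO exercise a and WT exercise a each carry 2 animal numbers, and whether RNA was pooled is not given. Their numbers are lower than those of all other columns, and no sedentary column has a number in that lower range. Whether these mice differed from the others in any other way is not given. Dnmt3a was at 48.6 to 60.5 CPM in the 6 KO libraries and at 113 to 180 CPM in the 6 WT libraries. The muscle genes Myh7, Tnnt1, Myl2, Ckm and Acta1 were each at 3138 CPM or more in every library. In 3 libraries liver genes were high. Alb, which encodes albumin, was at 329 CPM in KO sedentary b, 227 CPM in WT exercise b and 178 CPM in WT exercise c, against at most 20.6 CPM elsewhere. The clock output gene Dbp was at 136 to 266 CPM in KO exercise a, WT exercise a, KO sedentary a, WT sedentary b and WT sedentary c, and at 18.3 to 25.8 CPM in the other 7 libraries. The fast myosin gene Myh4 spanned 33.8 to 5505 CPM, with the highest level in KO sedentary b. The differences in liver genes, Dbp and Myh4 cross the groups. Their part in the results was not tested beyond the leave-out and covariate values given below.

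More genes fell than rose. The 415 called genes were 2.99% of those tested. Higher after exercise were 119 genes, 0.857% of those tested, and lower were 296 genes, 2.13%. Scaling by library totals alone called 83 genes higher and 619 lower, and that scaling moved the median log2 fold change of all tested genes to -0.09, against 0.00 under TMM scaling. The median log2 fold change was 0.62 among called rises and -0.67 among called falls. Past a log2 size of 1 were 38 rises and 56 falls. The genes that rose were the more abundant ones, with a median level of 60.7 CPM, against 12.4 CPM for the genes that fell and 16.3 CPM for all tested genes. At an unadjusted p under 0.05 there were 1319 higher and 1909 lower genes.

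Within each genotype, most called genes kept their groups apart. In 349 of the 415 called genes, 97 higher and 252 lower, no exercised library overlapped a sedentary one within KO or within WT, a pattern that 5.07% of all tested genes showed. In 282 called genes, 79 higher and 203 lower, all 6 exercised libraries lay on one side of all 6 sedentary ones, which 3.26% of all tested genes did, 1.09% higher and 2.16% lower. The smaller of the 2 genotypes' folds was at least 0.5 of the larger on the log2 scale in 398 of the 415. The call pools the same libraries, so these 3 counts describe genes selected by it. Over all 13886 tested genes, the log2 fold changes of the separate KO and WT fits had a Pearson r of -0.30 and a Spearman rho of 0.51 across genes, which are not independent replicates. With both genotypes in 1 model, 77 genes had a log2 fold change past 5 in size in KO or in WT. None of these 77 was called, and their part in the Pearson r was not tested. No gene was called by edgeR's test for a different exercise change in KO and WT mice, where 430 genes had an unadjusted p under 0.05, 2 of them among the 415. DESeq2 called 22 genes in that test, among them 4 of the liver list and none of the 415. A p that misses the threshold does not show equal changes. Each genotype alone, with 3 libraries a group, called far fewer genes, for a reason that was not tested. The fit of WT libraries alone called 5 genes and the fit of KO libraries alone also called 5.

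**Figure D1:**
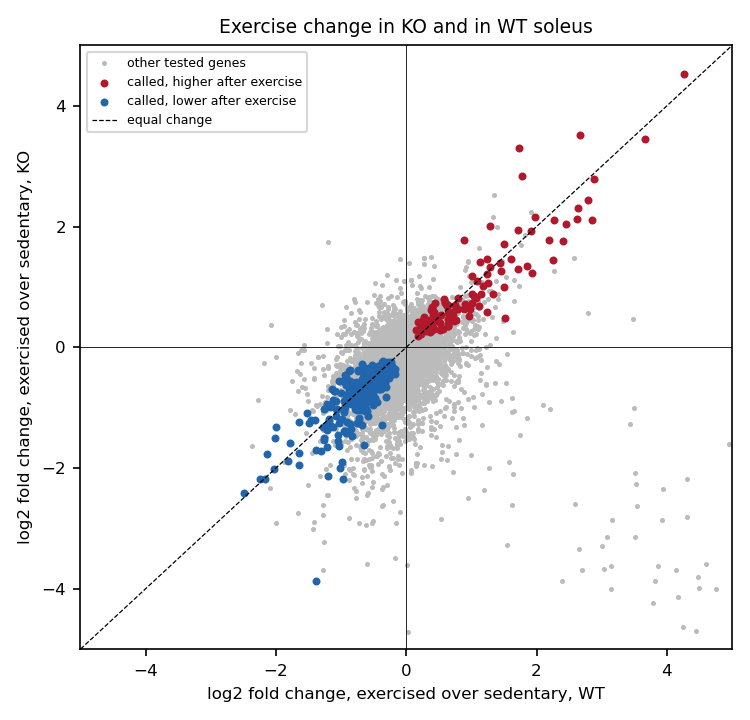
Log2 fold change, exercised over sedentary, in WT soleus (x axis) and in KO soleus (y axis). Each point is a tested gene, with the 119 called rises in red, the 296 called falls in blue and equal change as the dashed line; 77 genes lie outside the axes, none of them called. The called genes lie at the upper right and the lower left, and the grey points at the lower right include liver genes.

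Genes chosen in one genotype were then read in the other, with no library shared. Of the 100 genes with the smallest p in the WT fit, 93 had the same direction in KO mice, made up of 36 of 42 higher and 57 of 58 lower genes. In KO, 70 of these 100 also had an unadjusted p under 0.05. Of the 100 genes chosen in the KO fit, 99 had the same direction in WT mice, and 65 had an unadjusted p under 0.05 there. Over all tested genes, 70.5% had the same sign in both. Without WT exercise a, the 2 exercised WT libraries left were those high in liver genes, and 24.4% of the 127 genes then called in WT had the same direction in KO.

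The count of calls depended on single libraries. It was 921 without WT exercise b, but 122 without WT sedentary c, 128 without KO sedentary b, 157 without KO exercise c, 172 without WT exercise c, 173 without WT exercise a, 193 without KO sedentary a, 214 without WT sedentary a and 231 without KO exercise a. A set of 105 genes, 30 higher and 75 lower, was called in each of the 12 fits that left out 1 library. Without the 3 libraries high in liver genes, 77 genes were called, 58 of them among the 415. Without the 2 libraries that carry 2 animal numbers, 199 were called, 146 of them among the 415.

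The 15 rises and 15 falls with the smallest p are described first. All 30 were called in each of the 12 leave-one-out fits, with an edgeR adjusted p of at most 0.0311. In all 30, the exercised and the sedentary libraries did not overlap, which held for 3.26% of all tested genes. The 30 were picked by p in these same libraries. Their kept calls and lack of overlap therefore describe selected genes and are no separate evidence. None of the 30 lost its call without the 2 libraries that carry 2 animal numbers. Without the 3 libraries high in liver genes, 19 kept it and 11 had an adjusted p of 0.0502 to 0.0584 by edgeR, namely Nr4a2, Hspb1, Myh10, Bcl2l11, Enc1, Mafk, Gja4, Tnfsf10, Hjurp, Asap3 and Cd38.

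Slc25a25, which encodes a calcium-regulated carrier that moves ATP-Mg and phosphate across the inner mitochondrial membrane, was higher in every exercised library than in every sedentary one. In KO exercise a, b and c it was at 106, 77.0 and 96.1 CPM and in WT exercise a, b and c at 132, 102 and 110 CPM, against 22.2, 27.3 and 32.7 CPM in KO sedentary and 22.1, 31.2 and 11.8 CPM in WT sedentary libraries. The lowest exercised value, in KO exercise b, stood above the highest sedentary one, in KO sedentary c. The log2 fold change was 2.08 ± 0.23 (SE; edgeR adjusted p = 0.00428), with 1.76 in KO and 2.40 in WT mice. Its exons overlap Naif1 on the other strand, and the strand setting of the counting is not given, so reads from the overlap of the 2 genes cannot be told apart.

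Nr4a2, an orphan nuclear receptor of the Nr4a family, was at 13.7, 23.5 and 41.0 CPM (lowest, median and highest) in exercised libraries, against 2.68, 4.52 and 5.86 CPM in sedentary ones. The log2 fold change was 2.47 ± 0.32 (edgeR adjusted p = 0.00688). Jun, the core partner of AP-1, was at 228, 383 and 430 CPM in exercised libraries, against 115, 132 and 179 CPM in sedentary ones. Its log2 fold change was 1.35 ± 0.18, with 1.46 in KO and 1.25 in WT mice. Ier5, an immediate early gene that takes part in the heat shock response, was at 58.9, 79.5 and 118 CPM in exercised and 23.4, 25.6 and 38.7 CPM in sedentary libraries. All 3 genes were clear of overlap.

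Other rises were smaller. Fosl2, a Fos-family member of AP-1, was at 48.8, 55.4 and 62.1 CPM in exercised and 26.7, 32.8 and 36.6 CPM in sedentary libraries, a log2 fold change of 0.76 ± 0.09 (edgeR adjusted p = 0.00428). Hspa8, the constitutive Hsp70 chaperone, was at 274, 298 and 330 CPM in exercised and 198, 210 and 238 CPM in sedentary libraries, a log2 fold change of 0.47 ± 0.06. Of the same order were Hspb1, Mafk and Pqlc1, with log2 fold changes of 0.70, 0.72 and 0.67. Myh10, a non-muscle myosin heavy chain, rose by 0.43, Bcl2l11, which encodes the pro-apoptotic protein Bim, by 0.94, and Enc1, an actin-binding kelch protein, by 1.10 on the log2 scale.

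Of the 15 rises, 3 are annotated as long non-coding RNAs. BB123696 was at 3.80, 5.40 and 11.5 CPM in exercised libraries, against 0.469, 0.686 and 1.32 CPM in sedentary ones, a log2 fold change of 3.06 ± 0.40 (edgeR adjusted p = 0.00579). 9530052E02Rik was at 3.59, 3.87 and 6.25 CPM in exercised and 0.440, 0.789 and 1.98 CPM in sedentary libraries. Its exons overlap those of the called gene Irs2 on the other strand. On GRCm38, 9530052E02Rik spans chr8:11007850-11054541 on the plus strand and Irs2 chr8:10984681-11008929 on the minus strand. Reads from the stretch they share cannot be told apart, and how many there were is not known. 5031434C07Rik had 75 reads over the exercised libraries, 3 to 30 in each, and 3 reads over the sedentary libraries, 3 of which had none. The ratio of the summed reads, scaled by effective library size, was 27.0 (95% exact binomial interval 8.90 to 134, for counting error only).

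**Figure D2:**
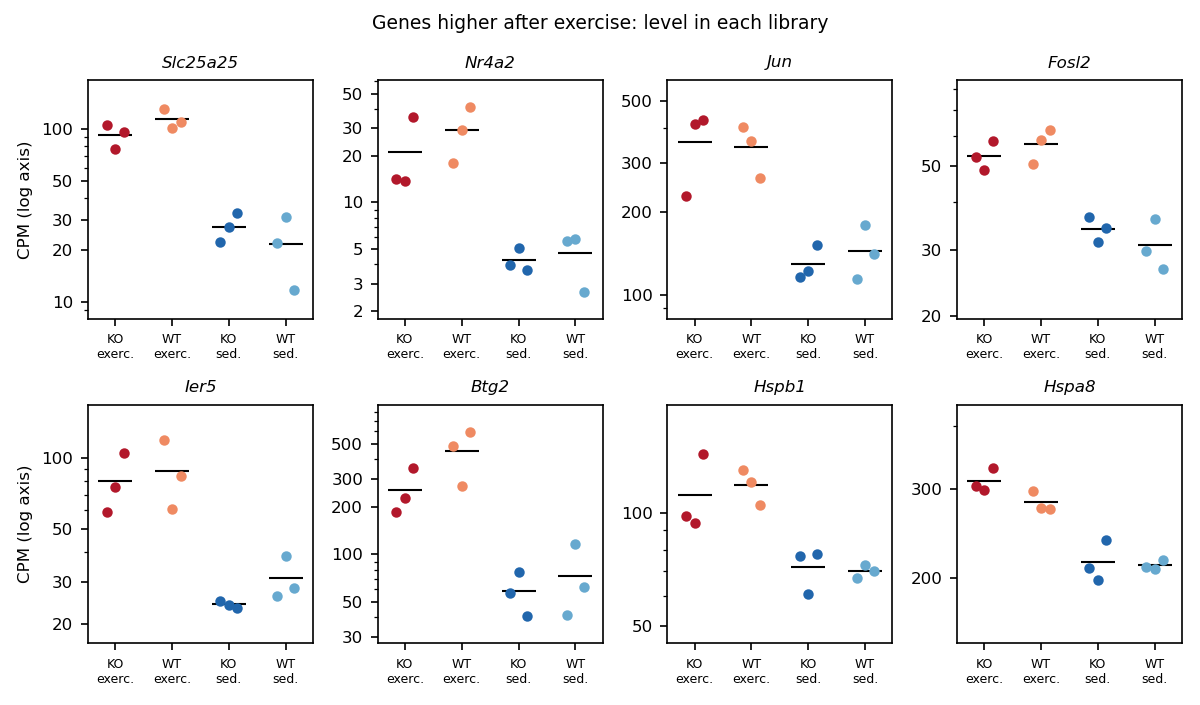
Level of 8 genes that rose after exercise, in CPM on a log axis, in each of the 12 libraries. Points are libraries, exercised groups in red and orange and sedentary groups in blue, with a line at the mean of 3. The exercised points lie above all sedentary points in each panel.

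The AP-1 list, the Fos, Jun and small Maf proteins with Atf3, had 6 of 11 tested members called higher and none lower, with a median log2 fold change of 0.76 over the 11 members, against 0.00 over all tested genes. The called members were Atf3, Fos, Jun, Maff, Mafk and Fosl2. Atf3, a stress-induced repressor and activator, was at 79.1, 263 and 510 CPM in exercised libraries, against 12.4, 20.9 and 41.0 CPM in sedentary ones. No exercised library overlapped a sedentary one, and the log2 fold change was 3.56 ± 0.52 (edgeR adjusted p = 0.0124). Fos averaged 195 ± 87.5 CPM in exercised and 31.5 ± 23.0 CPM in sedentary libraries (SD, n = 6 each), and these overlapped. Its log2 fold change was 2.61 ± 0.56 (edgeR adjusted p = 0.0411), and the call was lost without each library in turn except KO exercise a, WT exercise b and WT sedentary b. Maff averaged 26.0 ± 13.3 CPM in exercised and 8.36 ± 1.24 CPM in sedentary libraries. Fosb, with 1.16 ± 0.65, and Junb, with 0.47 ± 0.38, were not called (edgeR adjusted p of 0.305 and 0.481). The list's count was 5 or 6 in every leave-one-out fit, and 3 without the 3 libraries high in liver genes. Atf3 was not called without those 3 libraries (edgeR adjusted p = 0.0759).

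The Nr4a and cAMP-response list had 6 of 12 tested members called higher and none lower, with a median log2 fold change of 1.53. Besides Slc25a25 and Nr4a2 these were Nr4a1, Nr4a3, Sik1 and Irs2. Sik1, a kinase that restrains CREB coactivators, was at 182, 214 and 321 CPM in exercised and 36.5, 60.1 and 122 CPM in sedentary libraries, a log2 fold change of 1.85 ± 0.28 with 1.44 in KO and 2.26 in WT mice (edgeR adjusted p = 0.0124). Irs2, an adaptor of the insulin receptor, was at 168, 221 and 321 CPM in exercised and 12.5, 49.2 and 106 CPM in sedentary libraries, a log2 fold change of 2.25 ± 0.46. Both genes were clear of overlap. Nr4a1 averaged 355 ± 82.8 CPM in exercised and 117 ± 61.1 CPM in sedentary libraries, and Nr4a3 averaged 50.3 ± 37.1 CPM in exercised and 9.12 ± 2.81 CPM in sedentary libraries (SD, n = 6 each). The calls of Nr4a1, Nr4a3 and Irs2 were near the threshold, with edgeR adjusted p of 0.0488, 0.0384 and 0.0353, and each was lost in 9 or 10 of the 12 leave-one-out fits. The list's count was 3 without KO exercise c, KO sedentary a, KO sedentary b, WT exercise a, WT exercise c, WT sedentary a or WT sedentary c. It was 1, that of Slc25a25, without the 3 libraries high in liver genes. Ppargc1a, the coactivator of mitochondrial biogenesis that exercise is known to induce, was at 111 ± 35.8 CPM in exercised and 87.3 ± 41.8 CPM in sedentary libraries and was not called (log2 0.37 ± 0.31).

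CREB binds the palindrome TGACGTCA, the cAMP response element, which 1.79% of 32851 mouse promoter windows hold. The promoter windows of Slc25a25 and of Btg2, an anti-proliferative immediate early gene described below, each hold one copy and are shown to place it. Each window runs from 250 bases before to 50 bases after a RefSeq transcript start on GRCm38.p6, is written 5′ to 3′ on the gene's strand, and has the element in capitals. The Slc25a25 window is chr2:32424017-32424316 on the minus strand, with the element starting 150 bases before the transcript start, and the Btg2 window is chr1:134079106-134079405 on the minus strand, with the element starting 166 bases before it. For Slc25a25 this is 1 of 3 windows listed, at a start inside the gene, and the other 2 held no copy. Of the other called members of the cAMP-response list, Nr4a1, Nr4a2, Nr4a3 and Irs2 had windows with no copy, and Sik1 was not matched. No share over all rises is given, because 90 of the 119 (75.6%) had a window. Neither printed window held the AP-1 motif TGANTCA, the E-box CACGTG, the heat shock motif GAANNTTC or the CArG box, each searched on both strands. A match describes these letters and does not show that CREB bound there.
Slc25a25: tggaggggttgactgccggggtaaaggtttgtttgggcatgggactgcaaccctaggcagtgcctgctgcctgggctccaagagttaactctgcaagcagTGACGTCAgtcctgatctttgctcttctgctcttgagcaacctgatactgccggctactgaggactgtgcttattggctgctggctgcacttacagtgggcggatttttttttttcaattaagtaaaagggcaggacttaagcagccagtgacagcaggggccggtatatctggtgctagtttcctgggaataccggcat
Btg2: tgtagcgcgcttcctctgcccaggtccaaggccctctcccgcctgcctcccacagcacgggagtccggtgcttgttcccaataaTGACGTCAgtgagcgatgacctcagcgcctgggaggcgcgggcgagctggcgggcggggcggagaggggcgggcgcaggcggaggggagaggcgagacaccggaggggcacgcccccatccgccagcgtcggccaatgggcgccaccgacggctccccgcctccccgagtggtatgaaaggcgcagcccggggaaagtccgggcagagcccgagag

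Several heat shock chaperones rose. Of 24 tested members, 7 were called higher and none lower, 23 had a positive fold change, and the median log2 fold change was 0.31. The inducible Hsp70 gene Hspa1a was at 33.4, 76.4 and 235 CPM in exercised libraries, against 12.1, 19.8 and 24.1 CPM in sedentary ones. Its log2 fold change was 2.30 ± 0.43, with 2.83 in KO and 1.77 in WT mice (edgeR adjusted p = 0.0286). The near-identical copy Hspa1b averaged 70.8 ± 66.4 CPM in exercised and 11.2 ± 2.64 CPM in sedentary libraries (SD, n = 6 each), and how reads were split between the copies is uncertain. Hspb1, the small chaperone Hsp27, was at 94.2, 113 and 144 CPM in exercised and 61.0, 71.3 and 77.7 CPM in sedentary libraries (edgeR adjusted p = 0.00772). Dnajb4, an Hsp40 co-chaperone, was at 261, 372 and 456 CPM in exercised and 173, 219 and 236 CPM in sedentary libraries, a log2 fold change of 0.81 ± 0.14. These 4 genes were clear of overlap in all 12 libraries. Cryab, which encodes alpha-B crystallin, rose by 0.37 and the cytosolic Hsp90 gene Hsp90ab1 by 0.25 on the log2 scale. Under scaling by library totals Hsp90ab1 was no longer called. The calls of Hspa8, Hspb1 and Dnajb4 held in each leave-one-out fit. The list's count was 3 without KO sedentary a, KO sedentary b, WT exercise a, WT sedentary a or WT sedentary c, and 4 without KO exercise c, KO sedentary c, WT exercise c or WT sedentary b. Hspa8 was the member still called without the 3 libraries high in liver genes.

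HSF1 binds repeats of GAA in alternating orientation, here searched as GAANNTTC, which 7.86% of the promoter windows hold. The window of Hspb1 holds 2 copies and that of Hspa1a holds 1, printed in capitals to show their spacing before the transcript start. The Hspb1 window is chr5:135887669-135887968 on the plus strand, with the first copy starting 117 bases before that start. The Hspa1a window is chr17:34972107-34972406 on the minus strand, with the copy starting 104 bases before it. Neither window held the cAMP response element or the other motifs searched. The window of Hspa1b also held a copy, and both windows of Dnajb4 held none. Hspa8, Cryab and Hsp90ab1 were not matched to a window. Among called rises outside the chaperone list, Fosl2, Jun, 9530052E02Rik, Mttp, Pnrc1, Hspb3, Sgms1, Ddo, 8430408G22Rik and Myl12a had a copy too. Motif matches of the called falls are not given.
Hspb1: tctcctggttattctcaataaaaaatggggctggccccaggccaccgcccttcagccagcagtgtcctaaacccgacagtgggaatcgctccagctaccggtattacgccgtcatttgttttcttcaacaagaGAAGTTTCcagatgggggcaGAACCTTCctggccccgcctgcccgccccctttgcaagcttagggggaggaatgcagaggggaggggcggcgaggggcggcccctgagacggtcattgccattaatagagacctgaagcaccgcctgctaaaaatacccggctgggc
Hspa1a: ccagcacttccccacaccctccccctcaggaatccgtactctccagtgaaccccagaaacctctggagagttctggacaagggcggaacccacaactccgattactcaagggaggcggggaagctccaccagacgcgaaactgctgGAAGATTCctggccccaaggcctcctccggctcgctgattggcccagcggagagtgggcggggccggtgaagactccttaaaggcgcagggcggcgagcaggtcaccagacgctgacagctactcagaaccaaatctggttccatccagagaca

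Among the other early-response genes, 4 of 28 tested were called higher and none lower, with a median log2 fold change of 0.39. Btg2 was at 185, 310 and 594 CPM in exercised libraries, against 40.6, 59.1 and 116 CPM in sedentary ones, with no overlap. Its log2 fold change was 2.37 ± 0.32, with 2.12 in KO and 2.62 in WT mice (edgeR adjusted p = 0.00852), and the call held in each leave-one-out fit. Csrnp1, a nuclear protein induced by axin, was at 21.1, 35.6 and 57.5 CPM in exercised and 6.21, 8.30 and 20.3 CPM in sedentary libraries. It lost its call without KO sedentary b, WT exercise a, WT exercise c or WT sedentary c, and the list's count was then 2. Klf6, a zinc finger factor, rose by 0.62 on the log2 scale and overlapped between the groups. Its call was lost in 9 of the 12 leave-one-out fits. Egr1, the textbook member of the list, was at 98.8 ± 35.5 CPM in exercised and 61.3 ± 40.8 CPM in sedentary libraries and was not called.

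Of 17 glucocorticoid-induced and metallothionein genes, 4 were called higher and none lower, 16 had a positive fold change, and the median log2 fold change was 0.97. Errfi1, a feedback inhibitor of the EGF receptor, was at 125, 146 and 203 CPM in exercised and 44.6, 66.2 and 116 CPM in sedentary libraries, with no overlap. Its log2 fold change was 1.11 ± 0.20 (edgeR adjusted p = 0.0206), and leaving out KO sedentary b ended the call. Tsc22d3, which encodes the leucine zipper protein GILZ, was at 119, 158 and 260 CPM in exercised and 61.1, 73.6 and 126 CPM in sedentary libraries. Ddit4, an inhibitor of the kinase mTORC1, was at 38.1, 52.6 and 112 CPM in exercised and 5.09, 11.4 and 44.7 CPM in sedentary libraries. For both, the groups overlapped at the edge, and Cebpb, with a log2 fold change of 1.09, overlapped too. These 3 calls were lost in 9 or 10 of the 12 leave-one-out fits. The list's count was 0 without KO sedentary b, 2 without KO sedentary a, and 1 without KO exercise a, KO exercise c, KO sedentary c, WT exercise a, WT exercise c, WT sedentary a or WT sedentary c. It was also 0 without the 3 libraries high in liver genes.

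Single members of further lists moved. Atf4, the main factor of the integrated stress response, was at 240, 263 and 292 CPM in exercised and 207, 215 and 222 CPM in sedentary libraries, a log2 fold change of 0.31 ± 0.06 that held its call in each leave-one-out fit (edgeR adjusted p = 0.0162). Without the 3 libraries high in liver genes Atf4 was not called (edgeR adjusted p = 0.0723). It was 1 of 20 tested members of its list. Among 18 angiogenic and hypoxia genes, the oxygen sensor Egln3 rose by 0.69 and Angpt2, a destabilising ligand of the endothelial receptor Tie2, fell by 0.90 on the log2 scale. Egln3 lost its call without KO exercise c, KO sedentary b, WT exercise a, WT exercise c, WT sedentary a or WT sedentary c. Vegfa, the main endothelial growth factor, averaged 414 ± 123 CPM in exercised and 421 ± 62.2 CPM in sedentary libraries. Socs3, the feedback inhibitor of gp130 cytokine signalling, fell by 0.98 and the Notch target Heyl by 0.60, and both calls held in each leave-one-out fit. Without the 3 libraries high in liver genes Heyl kept its call and Socs3 did not (edgeR adjusted p = 0.0541).

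**Figure D3:**
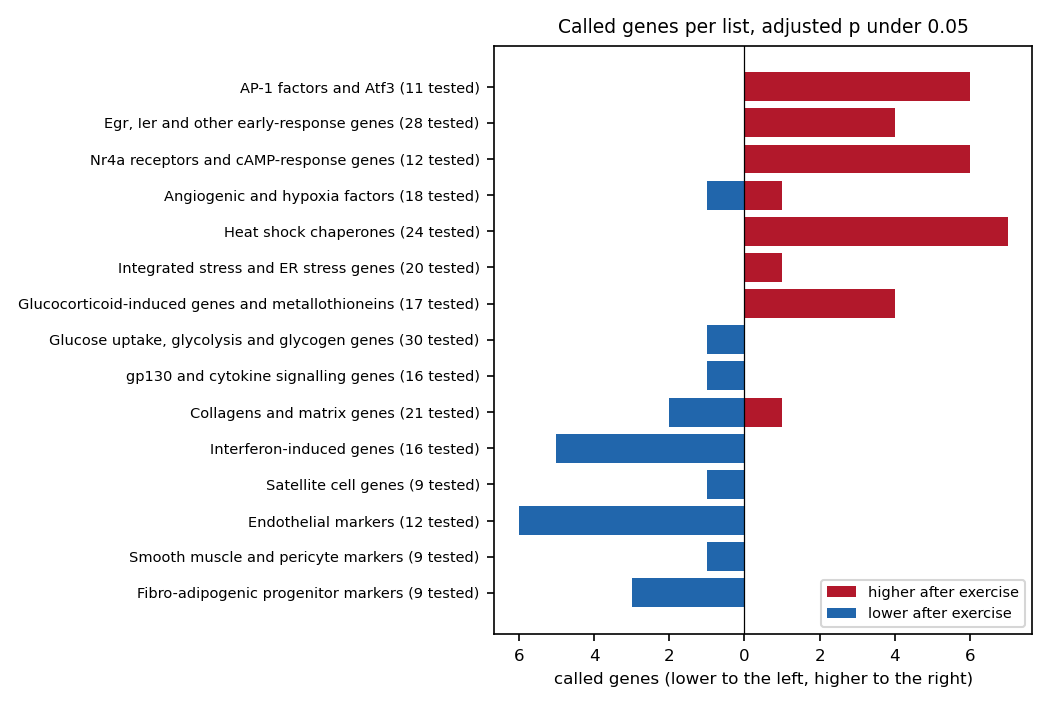
Number of called genes in each list with at least 1 call, lower after exercise to the left in blue and higher to the right in red; the number tested stands beside each name. The stress and early-response lists have calls on the right, and the endothelial, interferon and progenitor lists on the left.

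The falls were led by signalling genes of low level. Akap5, a scaffold that tethers protein kinase A and calcineurin near membranes, was at 2.56, 2.35 and 1.44 CPM in KO exercise and 1.13, 2.09 and 1.87 CPM in WT exercise a, b and c, against 9.12, 6.50 and 6.13 CPM in KO sedentary and 6.15, 7.71 and 8.77 CPM in WT sedentary libraries. Every sedentary library was above every exercised one, with a wide gap. The log2 fold change was -1.95 ± 0.19, with -1.77 in KO and -2.13 in WT mice, and its edgeR adjusted p of 0.00177 was the smallest of all tested genes. The gene lies at chr12:76324617-76334517 on the plus strand of GRCm38.

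Mycn, a Myc-family factor, was at 0.563, 0.990 and 2.29 CPM in exercised and 3.16, 5.56 and 8.24 CPM in sedentary libraries, a log2 fold change of -2.18 ± 0.31 (edgeR adjusted p = 0.00638). Sox4, a developmental transcription factor, was at 4.03, 5.96 and 9.69 CPM in exercised and 10.9, 14.0 and 22.2 CPM in sedentary libraries, a log2 fold change of -1.18 ± 0.17. In KO and WT mice these folds were -2.19 and -2.16 for Mycn and -1.19 and -1.18 for Sox4. Exons of Sox4 overlap a gene on the other strand.

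Sema6d, a transmembrane guidance cue, was at 15.3, 18.2 and 22.9 CPM in exercised and 29.8, 31.9 and 41.4 CPM in sedentary libraries, a log2 fold change of -0.85 ± 0.12. Dok4, a docking adaptor of receptor tyrosine kinases, was at 12.3, 14.1 and 15.2 CPM in exercised and 20.1, 22.3 and 26.8 CPM in sedentary libraries, a log2 fold change of -0.70 ± 0.09. Gja4, the gap junction protein connexin 37 of arterial endothelium, was at 4.98, 6.13 and 7.04 CPM in exercised and 9.88, 10.9 and 15.2 CPM in sedentary libraries, a log2 fold change of -0.91 ± 0.13. In none of the 3 did the groups overlap. Further falls were those of Cd38, an enzyme that consumes NAD, with a log2 fold change of -0.66, of the Arf GTPase-activating gene Asap3 with -0.75, and of the centromere chaperone gene Hjurp with -0.47. The count table also lists 6430706D22Rik, with -0.48, a name that RefSeq gives as a synonym of Hjurp, so the 2 entries are not independent.

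Immune genes were the other part of these falls. Gbp4, an interferon-induced GTPase, was at 8.61, 9.34 and 9.88 CPM in exercised and 11.99, 17.0 and 18.7 CPM in sedentary libraries, a log2 fold change of -0.81 ± 0.10 (edgeR adjusted p = 0.00428). Its exons overlap those of its relatives Gbp8 and Gbp9. Tnfsf10, the death ligand TRAIL, was at 2.52, 5.21 and 6.09 CPM in exercised and 9.35, 10.9 and 15.9 CPM in sedentary libraries, a log2 fold change of -1.30 ± 0.19. Clec10a, a lectin of macrophages, was at 0.791, 1.04 and 1.31 CPM in exercised and 2.33, 2.40 and 3.22 CPM in sedentary libraries. For Clec10a the log2 fold change was -1.30 ± 0.18, and none of these 3 genes overlapped between the groups.

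**Figure D4:**
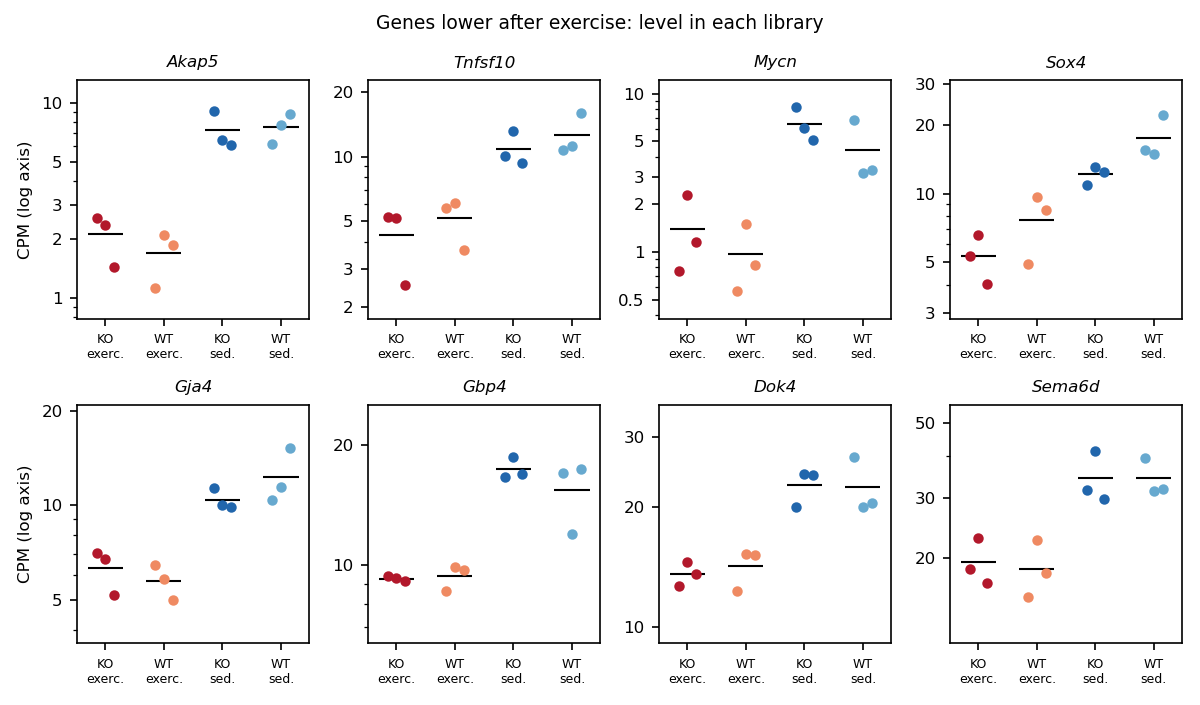
Level of 8 genes that fell after exercise, in CPM on a log axis, in each of the 12 libraries. Points are libraries, exercised groups in red and orange and sedentary groups in blue, with a line at the mean of 3. The exercised points lie below all sedentary points in each panel.

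Some interferon-induced genes fell. Of 16 tested members 5 were called lower and none higher, all 16 had a negative fold change, and the median log2 fold change was -0.42. The summed level of the list was 247 to 307 CPM in exercised and 331 to 408 CPM in sedentary libraries, without overlap. Most of that sum was B2m, at 169 ± 13.4 CPM in exercised and 209 ± 19.7 CPM in sedentary libraries (SD). B2m alone did not overlap either, so the sum mainly describes this gene. Irf1, the interferon-induced transcription factor, was at 8.79, 10.5 and 13.5 CPM in exercised and 14.0, 15.5 and 20.8 CPM in sedentary libraries, a log2 fold change of -0.60 ± 0.14 (edgeR adjusted p = 0.0349). Psmb8, an immunoproteasome subunit, fell by 0.67, Oasl2 by 0.70, the signal transducer Stat2 by 0.42 and B2m, the light chain of class I MHC, by 0.30 on the log2 scale. Each call was lost in at least 6 of the 12 leave-one-out fits. The list's count was 0 without KO exercise c, KO sedentary b, WT sedentary a or WT sedentary c, 1 without KO sedentary a, WT exercise a or WT exercise c, 2 without KO exercise a or WT sedentary b, and 3 without KO exercise b or KO sedentary c. It was 0 without the 3 libraries high in liver genes. Scaling by library totals called 9 members.

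Of 12 tested endothelial markers 6 were called lower and none higher, 11 had a negative fold change, and the median log2 fold change was -0.40. Egfl7, a secreted vascular protein, was at 26.4, 40.3 and 41.5 CPM in exercised and 51.2, 55.5 and 70.5 CPM in sedentary libraries, a log2 fold change of -0.65 ± 0.10 (edgeR adjusted p = 0.00785). Pecam1, the endothelial adhesion molecule CD31, was at 126, 174 and 187 CPM in exercised and 200, 209 and 235 CPM in sedentary libraries, and the receptor gene Tie1 at 60.3, 72.8 and 81.0 CPM in exercised and 86.5, 91.2 and 101 CPM in sedentary libraries. These 3 were clear of overlap and kept their calls in each leave-one-out fit, and Emcn also kept its call there. Cdh5, the adhesion protein VE-cadherin, fell by 0.42 and Vwf by 0.46 on the log2 scale, with overlapping groups. The call of Cdh5 was lost without KO exercise a, KO sedentary b, WT exercise a, WT exercise c, WT sedentary a or WT sedentary c, and that of Vwf in 10 of the 12 leave-one-out fits, all but those without WT exercise a or WT exercise b. The VEGF receptor Kdr had a log2 fold change of -0.72 ± 0.18 and was not called (edgeR adjusted p = 0.0564). The summed level of the 12 markers was 968 to 1462 CPM in exercised and 1467 to 1763 CPM in sedentary libraries. The list's count was 4 to 7 over the leave-one-out fits, 3 without the 2 libraries that carry 2 animal numbers, and 0 without the 3 libraries high in liver genes.

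Markers of other cells between the fibres were partly lower. Of 9 markers of fibro-adipogenic progenitors, the fibroblast-like cells of muscle, Pdgfra, Cd34 and Smoc2 were called lower, with log2 fold changes of -0.53, -0.56 and -0.40, and none higher. The summed level of these 9 was 1329 to 1936 CPM in exercised and 1744 to 2255 CPM in sedentary libraries, which overlapped. That count was 0 without KO exercise a, KO sedentary b, WT exercise a, WT exercise c, WT sedentary a or WT sedentary c, and 1 without KO exercise c, KO sedentary a or KO sedentary c. Pdgfrb, a receptor of pericytes, was the called member of 9 mural markers, with a log2 fold change of -0.49. Its call was lost without KO exercise c, KO sedentary a, KO sedentary b, WT exercise a, WT exercise c, WT sedentary b or WT sedentary c. The fold change was negative in 8 of the 9. The exception was Des, the intermediate filament gene desmin that muscle fibres also express, at 6776 ± 602 CPM in exercised and 5807 ± 431 CPM in sedentary libraries (SD, n = 6 each), which makes up most of the summed level of the list.

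Among 21 collagen and matrix genes, the basement membrane collagens Col4a1 and Col4a2 were called lower, with log2 fold changes of -0.58 and -0.54, and the protease Adamts1 higher, with 0.87. The fold change was negative in 20 of the 21. Exons of Col4a1 and Col4a2 overlap on opposite strands. The count of lower calls was 9 without WT exercise b, 1 without KO exercise c, KO sedentary c or WT sedentary a, and 0 without KO exercise a, KO sedentary a, KO sedentary b, WT exercise a, WT exercise c, WT sedentary b or WT sedentary c. Adamts1 lost its call without KO exercise c, KO sedentary b, WT exercise a, WT exercise c or WT sedentary a. Without the 3 libraries high in liver genes, no member of the progenitor, mural or matrix lists was called.

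Each of 11 tested macrophage markers had a negative fold change, with a median of -0.90 on the log2 scale, and edgeR called none of them. DESeq2 called 6 lower, and edgeR called 2 without WT exercise b and 1 without KO exercise b, without WT sedentary b or under scaling by library totals. Their summed level was 90.8 to 180 CPM in exercised and 139 to 681 CPM in sedentary libraries, with KO sedentary b the highest. The nearest to the threshold were Ptprc and Csf1r, with log2 fold changes of -1.08 ± 0.30 and -0.79 ± 0.21 (edgeR adjusted p of 0.0682 and 0.0683). Of 8 neutrophil markers 2 passed the filter and Ly6g had no read in any library. None of 8 lymphocyte markers passed. Schwann cell, adipocyte, erythrocyte and tendon markers had negative folds in every tested member, 8, 7, 8 and 7 genes, with no call; under DESeq2's size factors 1 tendon marker was positive. The erythrocyte genes Hba-a1 and Hba-a2 had identical counts in all libraries and are a single measurement. Summed levels of the Schwann cell, adipocyte, erythrocyte and tendon lists overlapped between exercised and sedentary libraries. The 20 liver genes, summed to 32.5 to 472 CPM in exercised and 45.4 to 784 CPM in sedentary libraries, had no call. The part of these other cells in the exercise result was not tested.

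**Figure D5:**
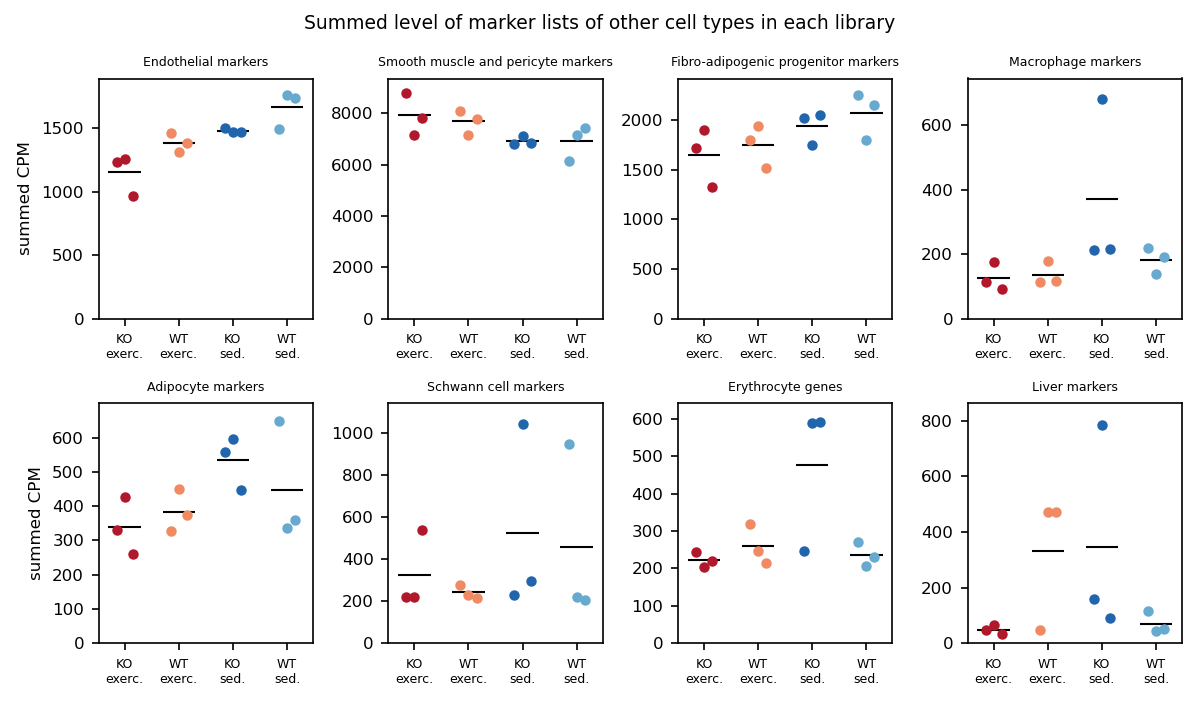
Summed CPM of 8 marker lists of other cell types in each of the 12 libraries, on axes from 0. Points are libraries, exercised groups in red and orange and sedentary groups in blue, with a line at the mean of 3; the mural sum is mostly Des, which muscle fibres also express, endothelial sums were 968 to 1462 CPM in exercised and 1467 to 1763 CPM in sedentary libraries, and liver sums were high in 3 libraries of both conditions.

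The metabolic machinery of the fibres showed small differences without calls by edgeR. All 47 respiratory chain subunits had a positive fold change, from 0.04 to 0.22 on the log2 scale with a median of 0.14, and none was called. All 14 TCA cycle enzymes were likewise positive, with a median of 0.11. Of 13 slow fibre genes 12 were positive, with a median of 0.24, and Myl2, the slow myosin light chain, averaged 4653 ± 441 CPM in exercised and 3829 ± 585 CPM in sedentary libraries. Under scaling by library totals, 43 of the 47 respiratory, 8 of the 14 TCA and 11 of the 13 slow fibre genes were positive, with medians of 0.05, 0.02 and 0.14. Neither the 20 exercise-inducible metabolic regulators nor the 26 fatty acid genes had a call. DESeq2 called 4 respiratory genes, 1 TCA cycle gene and 1 metabolic regulator higher. Without WT exercise b, edgeR called 2 respiratory genes, 2 slow fibre genes and 2 metabolic regulators higher. Ppara, the nuclear receptor of fatty acid oxidation, had a log2 fold change of 0.68 ± 0.19 (edgeR adjusted p = 0.0791). Pdk4, an inhibitor of pyruvate dehydrogenase, averaged 1286 ± 956 CPM in exercised and 1648 ± 802 CPM in sedentary libraries. The glycogen and glycolysis list had 1 call of 30, under the symbol Pgm1, which fell by 0.44 on the log2 scale. Pgm1 averaged 7.38 ± 1.01 CPM in exercised libraries. It lost its call in 10 of the 12 leave-one-out fits, all but those without KO exercise b or WT exercise b. Some symbols in the counts are older names, such as Pqlc1, which RefSeq gives as Slc66a2. Whether Pgm1 here names the glycogen enzyme was not tested, so this call is not read as a change in glycogen genes.

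Clock genes had no call by edgeR among 17 core members and 4 output factors. DESeq2 called 1 core gene higher, 1 core gene lower and 1 output gene higher. With edgeR, 1 core gene was called higher without WT exercise b and 1 lower without KO sedentary c or under scaling by library totals. Per1, which glucocorticoids and cAMP also induce, had a log2 fold change of 1.45 ± 0.53 and averaged 189 ± 75.8 CPM in exercised and 69.0 ± 56.0 CPM in sedentary libraries (edgeR adjusted p = 0.148). Nfil3, a repressor of the clock output genes, had a log2 fold change of 2.01 ± 0.58 (edgeR adjusted p = 0.0924). A clock covariate was the mean log2 level of the output genes Dbp, Tef and Hlf and the core genes Nr1d1, Nr1d2, Per3 and Ciart. With it in the model, 796 genes were called, 244 higher and 552 lower, and all 415 were among them. Over the 37 lists together, 585 genes were tested and 51 were called, 30 higher and 21 lower, and 364 called genes were in no list.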

How the data were processed

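The deposited table holds raw counts per gene for 12 libraries, per the file headers. Its other 12 columns, with per-length values of the same libraries, were not used here. Reads were aligned with STAR to mm10 and counted with featureCounts, per the submitters' processing notes; no version, annotation or strand setting is stated. RNA was extracted with Trizol and a spin column kit, and libraries were made with a BGI kit and read on a BGISEQ instrument, per the labels' protocols. Column names give genotype and condition, and their animal numbers match no sample title, so each column was mapped to a group only. The study's design text gives 3 mice a group, and the libraries were treated as separate mice; replicates of a group differed beyond counting noise.

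The deposited counts were analysed in R 4.3.3 with edgeR 4.0.16 (filterByExpr with a minimum count of 10, TMM scaling, quasi-likelihood test with Benjamini-Hochberg adjustment over all tested genes). The median prior degrees of freedom were 4.49 with 9 residual degrees. The SE of a log2 fold change was derived from the test, as its size over the square root of the quasi-likelihood F statistic. CPM is each count scaled to its library's effective size, and it does not compare levels between genes. Alternatives used DESeq2 1.42.0 and limma 3.58.1. The scripts were tested on simulated data. Promoter sequences and gene positions are from RefSeq, GRCm38.p6, and strands, gene types and exon overlaps from the GENCODE annotation of that build. The members, the gene lists and the tests were chosen with earlier results of these data known. Named genes were the 15 rises and 15 falls with the smallest p among called genes with the same sign in both genotypes, and up to 4 members of each list with the smallest p; 2 of the 15 falls are not reported here; called members of a list are named with it, and other list members named without a call (Fosb, Junb, Egr1, Ppargc1a, Vegfa, Pdk4 and others) were added after their values were seen. Figures were drawn with Python 3.11.15 and matplotlib 3.10.9.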

Additional observations from a re-analysis of the deposited data

Results flagged for a closer look

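Among the 15 rises and 15 falls, 60 groups of 6 libraries were searched for a single library that lay far from the other 5, and 5 had one; chance gives about 1 in 20 such groups. Gbp4 was lowest among sedentary libraries in WT sedentary b, at 11.99 CPM, which is still above every exercised library. Ier5 was highest among sedentary libraries in the same library, at 38.7 CPM. Clec10a was highest among sedentary libraries in KO sedentary b, at 3.22 CPM, the library with the highest summed macrophage level. Gja4 was highest among sedentary libraries in WT sedentary c, at 15.2 CPM. 5031434C07Rik was highest among exercised libraries in KO exercise c, at 2.16 CPM.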

How the results depend on the processing

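The count of called genes, 415, with 119 higher and 296 lower, was within 1.5 times of these values with limma-voom, DESeq2's size factors, other count minimums and 1 mean per group. DESeq2 called 1159 genes (428 higher, 731 lower; 46 adjusted p were not given), 108 of them in the lists, and 22 in the test between genotypes. Library totals alone called 702 (619 lower; the higher share was 11.8%, against 28.7%). The clock covariate called 796 (244 higher, 552 lower), and a liver-gene covariate 679 (510 lower). Leaving out 1 library gave 122 to 921 calls, 36 to 281 higher and 86 to 640 lower, and 21 to 85 in the lists. Leaving out libraries in 2 sets, chosen after seeing the data, gave 199 (68 higher, 131 lower, 31 in the lists) without those with 2 animal numbers and 77 (28 higher, 49 lower, 10 in the lists) without those high in liver genes; WT alone and KO alone gave 5 each. Under each setting fitted over both genotypes, every called gene had the same sign in both, which a call that pools the genotypes favours. Genes chosen in WT kept their direction in KO in 24.4% to 99.0% over the leave-one-out fits. No followed gene reversed its sign, 21 of 73 were called under all 23 alternatives, and so were 34 genes of the whole table, 10 higher and 24 lower. The cause of these shifts was not tested. No paired analysis was possible because the count columns carry animal numbers that match no replicate number in the labels, so a replicate block was not run. For genes under 1 CPM in a group, such as 5031434C07Rik, a library holds few reads, which limits their precision.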

Other observations

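The largest changes among called genes outside the lists and outside the 15 rises and 15 falls above were taken after their values were seen. This set, the 10 rises and 10 falls of greatest log2 size with a mean of at least 5 CPM, included muscle genes. Abra, which encodes the actin-binding protein STARS of striated muscle, was at 470, 762 and 1007 CPM (lowest, median and highest) in exercised libraries, against 289, 328 and 413 CPM in sedentary ones. The groups did not overlap, and the log2 fold change was 1.15 ± 0.18 with 1.06 in KO and 1.25 in WT mice (edgeR adjusted p = 0.0101). Tob2, an anti-proliferative relative of Btg2, was at 172, 222 and 312 CPM in exercised and 67.7, 86.3 and 147 CPM in sedentary libraries. Both calls held in each of the 12 leave-one-out fits, as did that of Impact, with a log2 fold change of 1.27. Abra, Tob2 and Impact were not among the 34 genes called under all 23 alternatives. Otud1, a deubiquitinase, had a log2 fold change of 2.84 ± 0.51 and lost its call without KO exercise c, KO sedentary b, WT exercise a or WT sedentary a.

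The falls of this set were led by Aplnr. This gene, which encodes the apelin receptor of endothelium, was at 7.98, 12.7 and 29.8 CPM in exercised libraries, against 54.8, 62.3 and 89.4 CPM in sedentary ones. Its log2 fold change was -2.02 ± 0.32, with -2.01 in KO and -2.03 in WT mice (edgeR adjusted p = 0.0152). Nos2, the inducible nitric oxide synthase, was at 4.02, 6.60 and 7.97 CPM in exercised and 9.75, 13.3 and 14.5 CPM in sedentary libraries, a log2 fold change of -1.07 ± 0.17. Trp53i11, a gene first found as induced by p53, had a log2 fold change of -1.30 ± 0.23. None of these 3 genes overlapped between the groups, and their calls held in each of the 12 leave-one-out fits. None of the 3 was among the 34 genes called under all 23 alternatives.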
